A study of Homo sapiens with 18 samples.

Results

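The genes described here are 34 targets and controllers of the transcription factor NRF2 (gene NFE2L2), together with genes that make and use glutathione and NADPH, out of 23710 gene symbols in each deposited table. They were found by symbol in the count tables of 3 established human head and neck squamous cell carcinoma (HNSCC) lines, and each of the 34 was found once. EHF, a transcription factor of epithelia with an ETS DNA-binding domain, was raised or lowered in these lines. In A253, 3 EHF-overexpressing libraries grown with doxycycline were set against 3 control libraries in regular medium, and SCC25 had 2 and 2 libraries of the same kinds. In CAL27, all in regular medium, 2 libraries of each of a pair of EHF knockdowns, named sh 64 and sh 65 in the count table, shared 2 control libraries. Doxycycline (1 ug, given to induce EHF) was in the overexpressing cells only, so its action and that of EHF cannot be told apart. Whether replicates of a group were grown separately is not in the labels; p-values therefore speak of the spread among these libraries, which may be technical.

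NRF2 is held in the cytoplasm and marked for degradation by KEAP1, a sensor whose cysteines react with electrophiles and oxidants; once released, NRF2 pairs with a small MAF protein and binds antioxidant response elements (AREs) near its target genes. Its targets make glutathione, reduce thioredoxin, regenerate NADPH, store iron and detoxify quinones and carbonyls. NRF2 is controlled mainly through protein stability, so its mRNA level is not a measure of its activity, and the pathway is often switched on by mutation in squamous carcinomas.

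EHF itself followed the labels. It stood at 84.5, 91.4 and 83.2 CPM (counts scaled to the library's total after TMM adjustment) in A253 control replicates 1 to 3 and at 765, 711 and 633 with overexpression. In SCC25 it was 461 and 420 against 860 and 892. In CAL27 it was 962 and 992 in the controls, 497 and 526 with sh 64, and 444 and 469 with sh 65. The groups did not overlap in any line, and the fitted log2 changes were 3.02, 0.99, -0.93 and -1.10 in that order, so much EHF mRNA remained in the knockdowns. Libraries held 7068155 to 19962159 counted reads, and all 6 squamous epithelial markers had counts in every group. The summed marker level was 6536 to 6851 CPM in the CAL27 controls and 9009 to 11213 CPM in the CAL27 knockdown libraries, and the part of this shift in the results below was not tested. In A253 the same sum was 12513 to 13461 CPM in controls and 10981 to 11924 with EHF. Summed markers of leukocytes, fibroblasts and endothelium stayed at or under 111 CPM, but some moved with EHF. In SCC25, leukocyte markers went from 31.2 to 34.5 CPM in controls to 39.1 to 46.0 with EHF, and fibroblast markers from 87.8 to 98.5 CPM to 108 to 111. Fibroblast markers were at 8.08 to 8.96 CPM in CAL27 controls and 14.2 to 16.7 with sh 64, and leukocyte markers at 5.23 to 5.58 CPM in A253 controls and 8.69 to 10.3 with EHF. The part of these shifts in the results was not tested either.

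Promoter sequence is shown first, to mark where the ARE letters lie close to the start of some of the 34 genes. RefSeq windows of 300 bases (250 before and 50 after the start, GRCh38.p14) were at hand for 26 of the 34 genes. The ARE core TGACNNNGC, searched on both strands, was in the window of 12 of these 26 genes (46.2%), against 16.1% of all 27305 genes with a window. Many of the 34 genes were listed as NRF2 targets, and NRF2 binds AREs, so a raised share can follow from that choice alone. Genes that moved with EHF were not compared with those that did not. Some genes have several windows; per window the shares were 35.1% of 37 and 13.3% of 35116. The ETS letters CCGGAAGT were in 0 of the 26 genes and in 4.95% of all genes. For 26 genes, 0 is near that share, and no other ETS letters were searched. These matches are a description of letters, not of binding, and TGACTCA, the AP-1 site, lies within some of them. In the sequences below, each read 5′ to 3′ on the gene's strand, capitals mark the ARE core, and where the match is on the other strand its reverse complement is seen. The first 5 give the 250 bases before the start; PIR gives 29 bases around a match 27 bases after it.
GPX2 (chr14:64942746-64942995, minus strand): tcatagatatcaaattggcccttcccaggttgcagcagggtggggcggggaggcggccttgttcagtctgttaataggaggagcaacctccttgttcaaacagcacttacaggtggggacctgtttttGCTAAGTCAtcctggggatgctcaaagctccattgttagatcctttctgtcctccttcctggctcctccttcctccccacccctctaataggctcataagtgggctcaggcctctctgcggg
ME1 (chr6:83431052-83431301, minus strand): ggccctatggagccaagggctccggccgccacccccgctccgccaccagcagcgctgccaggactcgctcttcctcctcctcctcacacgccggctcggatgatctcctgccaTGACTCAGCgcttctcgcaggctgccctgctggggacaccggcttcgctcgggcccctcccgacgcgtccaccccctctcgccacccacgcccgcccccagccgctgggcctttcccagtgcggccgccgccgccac
IDH1 (chr2:208255072-208255321, minus strand): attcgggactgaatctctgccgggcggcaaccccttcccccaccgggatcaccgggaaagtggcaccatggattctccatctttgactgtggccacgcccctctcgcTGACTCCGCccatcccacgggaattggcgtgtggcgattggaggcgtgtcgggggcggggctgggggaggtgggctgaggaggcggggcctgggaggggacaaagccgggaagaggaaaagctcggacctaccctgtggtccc
PGD (chr1:10398814-10399063, plus strand): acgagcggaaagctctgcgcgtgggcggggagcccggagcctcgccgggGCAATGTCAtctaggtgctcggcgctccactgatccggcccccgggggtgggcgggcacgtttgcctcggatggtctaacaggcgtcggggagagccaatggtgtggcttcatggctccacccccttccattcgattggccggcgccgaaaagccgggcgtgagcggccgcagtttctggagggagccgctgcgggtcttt
GCLM (chr1:93909431-93909680, minus strand): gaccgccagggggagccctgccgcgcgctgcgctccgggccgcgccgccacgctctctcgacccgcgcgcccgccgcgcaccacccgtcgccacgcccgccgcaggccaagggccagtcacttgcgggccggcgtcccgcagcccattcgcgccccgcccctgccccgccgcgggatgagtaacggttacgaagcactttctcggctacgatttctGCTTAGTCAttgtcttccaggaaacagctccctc
PIR (chrX:15493289-15493317, minus strand): gccgcgaagcGCTGAGTCAcggtgaggct
The match began 122 bases before the start in GPX2, 137 in ME1, 143 in IDH1, 201 in PGD and 34 in GCLM. KEAP1, TXNRD1, EPHX1, CYP4F11, CBR1 and MGST1 were the other genes with a match.

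Changes with EHF differed by line. With EHF raised in SCC25, 17 of the 34 genes fell and 1, FTH1, rose, where 11.6% of all 14120 genes tested fell and 12.2% rose; the median log2 change was -0.18 for the 34 genes and 0.00 for all genes. With EHF lowered in CAL27, the mean of both knockdowns showed 15 of 33 genes tested higher and 2 lower, SQSTM1 and SRXN1, against 9.88% and 8.91% of 13629 genes, with medians of 0.20 and 0.00. Each knockdown alone gave 15 higher and 1 lower (sh 64; 8.76% and 6.89% of all genes) and 11 higher and 2 lower (sh 65; 7.62% and 7.01%). In A253, where EHF rose most, 1 gene rose (PGD) and 1 fell (SLC7A11) of 33 tested, against 5.03% and 2.94% of 14503 genes, and the median log2 change was 0.01. These calls used edgeR's quasi-likelihood test at a Benjamini-Hochberg adjusted p under 0.05 over all genes tested. GCLC, GSS, GSTM3, TXN and HMOX1 passed in none of the comparisons of an EHF-changed group with its control.

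**Figure D1:**
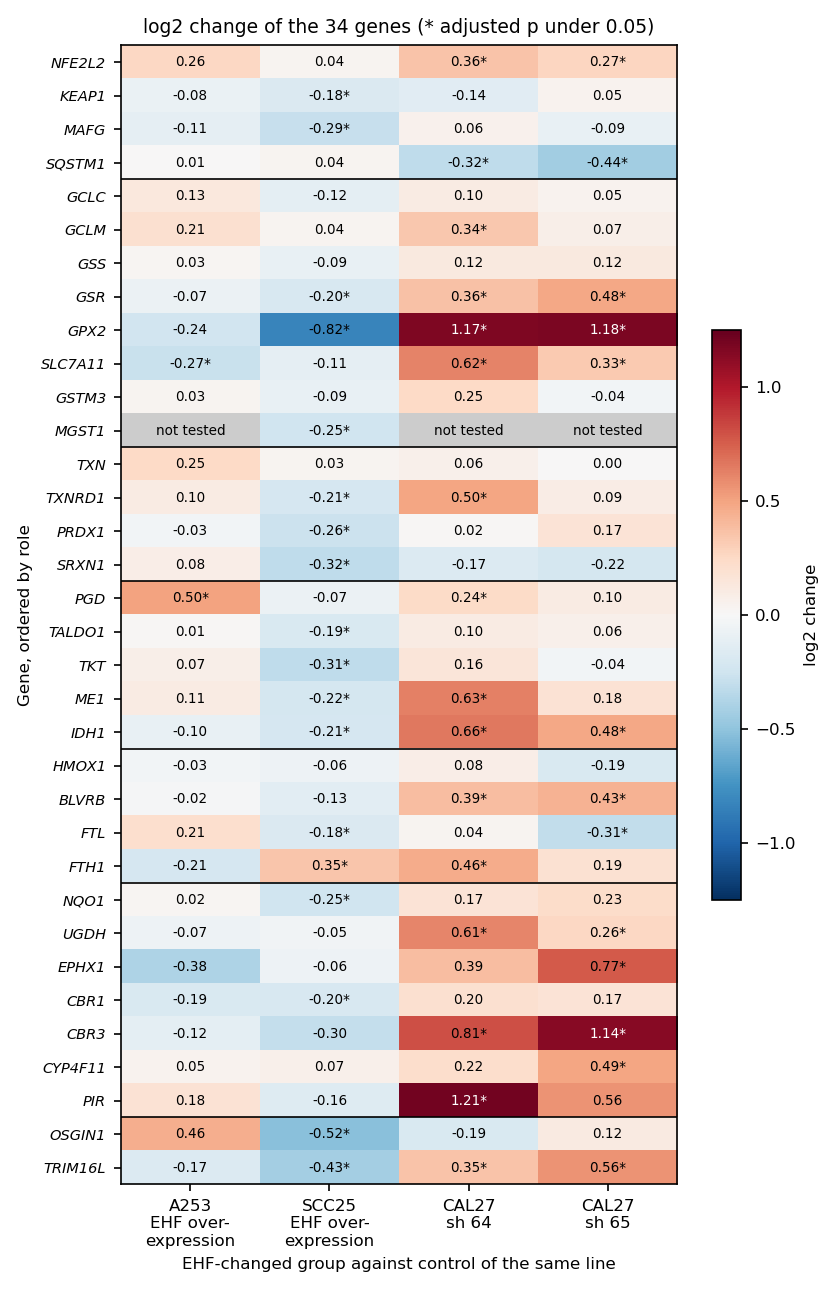
Heat map of the log2 change (colour and printed value) of the 34 genes, in rows ordered by role, for EHF overexpression in A253 and SCC25 and for sh 64 and sh 65 in CAL27, each against the control of its line; an asterisk marks an adjusted p under 0.05 and grey a gene with too few counts to test. The SCC25 column is mostly negative and both CAL27 columns mostly positive, with GPX2 at -0.82, 1.17 and 1.18.

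The number of calls rested partly on single libraries. In SCC25 it was 9 without EHF overexpression replicate 1 and 10 with DESeq2, while 8 genes (GPX2, TXNRD1, PRDX1, SRXN1, TKT, IDH1, FTH1 and NQO1) were called under every alternative tried. In CAL27 the mean gave 10 without control replicate 1, and 9 genes (SQSTM1, GSR, SLC7A11, ME1, IDH1, UGDH, CBR3, PIR and TRIM16L) were called under every alternative.

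Among the controllers of the pathway, NFE2L2, which encodes NRF2, rose in the CAL27 knockdowns. It was at 117 and 117 CPM in the CAL27 controls, 156 and 143 with sh 64 and 140 and 142 with sh 65, and every knockdown library lay above both controls (log2 change of the mean 0.32, SE 0.07, adjusted p = 0.00298). Without control replicate 1 or 2 the adjusted p was 0.0709 or 0.0741. In SCC25 it was at 350 and 334 CPM in controls and 349 and 353 with EHF; in A253 it was at 137, 170 and 153 against 201, 172 and 180, with no overlap but a log2 change of 0.26 that did not pass.

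KEAP1, the NRF2 inhibitor, fell slightly in SCC25, from 145 and 148 CPM to 128 and 131 (log2 change -0.18, SE 0.05, adjusted p = 0.0126); the adjusted p was 0.13 without EHF overexpression replicate 1 and 0.0672 without replicate 2. Its values overlapped between groups in A253 (83.2, 75.4 and 79.8 against 77.1, 70.5 and 77.7 CPM). The CAL27 values were 78.6 and 83.6 CPM in controls, 73.4 and 74.2 with sh 64, and 87.2 and 80.6 with sh 65, and neither knockdown passed. MAFG, a small MAF partner of NRF2, fell in SCC25 (log2 change -0.29), a call lost without EHF overexpression replicate 2. The other small MAF genes, MAFF and MAFK, rose there (log2 changes 0.42 and 0.35, adjusted p = 0.00979 and 0.00437). SQSTM1, the autophagy receptor p62 that binds KEAP1, fell with both knockdowns: 560 and 571 CPM in controls, 458 and 448 with sh 64 (log2 change -0.32) and 421 and 413 with sh 65 (-0.44). Without control replicate 2 the sh 64 call had an adjusted p of 0.0734.

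In the glutathione group, 3 of 8 genes fell in SCC25 (GSR, GPX2 and MGST1), against 11.6% of all genes, and 3 of 7 tested rose in the CAL27 mean (GSR, GPX2 and SLC7A11), against 9.88%. GPX2, an epithelial glutathione peroxidase that reduces hydroperoxides, had the largest change of the 34 genes in SCC25 and in the CAL27 mean. Its SCC25 controls were at 111 and 112 CPM and its EHF libraries at 64.2 and 61.9, a 1.77-fold fall (log2 change -0.82, SE 0.06, adjusted p = 8.48e-11). In CAL27 the gene was near its floor, with 32 and 52 reads (3.54 and 2.63 CPM) in the controls. It was at 5.87 and 7.78 CPM with sh 64 and 5.44 and 8.11 with sh 65, all above both controls (mean 2.25-fold, log2 change 1.17, SE 0.23, adjusted p = 0.00152). Without CAL27 control replicate 2 this log2 change was 0.91 with an adjusted p of 0.0783. The A253 values did not overlap either (114, 111 and 132 against 101, 95.5 and 107 CPM), but the log2 change of -0.24 did not pass there.

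GSR, glutathione reductase, regenerates reduced glutathione with NADPH. It was at 105 and 106 CPM in SCC25 controls and 91.4 and 92.4 with EHF (log2 change -0.20, adjusted p = 0.0101), a call lost without either EHF library (adjusted p = 0.0843 and 0.0663). Its CAL27 values were 121 and 124 CPM in controls, 145 and 172 with sh 64, and 165 and 178 with sh 65 (log2 change of the mean 0.42, SE 0.08, adjusted p = 0.000738), with no overlap. In A253 it was at 323, 307 and 317 against 295, 309 and 299 CPM, which overlapped.

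SLC7A11, the cystine importer that supplies cysteine for glutathione, fell in A253 from 39.3, 42.2 and 40.0 CPM to 35.0, 32.8 and 32.7 (log2 change -0.27, SE 0.07, adjusted p = 0.0231). The A253 groups did not overlap, but leaving out any of 5 of the 6 libraries, all but EHF overexpression replicate 1, gave an adjusted p between 0.0547 and 0.0956. In CAL27 it rose from 59.3 and 58.8 CPM to 86.2 and 95.4 with sh 64 and 76.8 and 71.4 with sh 65 (log2 changes 0.62 and 0.33, adjusted p = 9.64e-05 and 0.0162). The sh 65 call was lost without either control (adjusted p = 0.111 and 0.148) or without sh 65 replicate 1 (0.0741). The SCC25 values were 57.4 and 59.2 CPM in controls and 55.4 and 52.9 with EHF, and did not pass. GCLC and GCLM, the catalytic and modifier subunits of the rate-limiting enzyme of glutathione synthesis, moved little; only GCLM with sh 64 passed (log2 change 0.34), and that call was lost without either control or without sh 64 replicate 2 (largest adjusted p = 0.189). MGST1, a membrane-bound glutathione transferase, had 1 read in all A253 controls and 0 in the CAL27 controls and could be tested in SCC25 alone, where it went from 63.4 and 61.1 CPM to 51.9 and 53.0 (log2 change -0.25; adjusted p = 0.0582 without EHF overexpression replicate 1).

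Of the thioredoxin genes, TXNRD1, PRDX1 and SRXN1 fell in SCC25, where 11.6% of all genes did, and thioredoxin itself (TXN) did not pass. TXNRD1, the selenoenzyme that reduces thioredoxin with NADPH, went from 286 and 282 CPM to 244 and 246 in SCC25 (log2 change -0.21, adjusted p = 0.00202). CAL27 gave 428 and 453 CPM in controls and 612 and 632 with sh 64 (log2 change 0.50, adjusted p = 0.000176), but 446 and 494 with sh 65, which overlapped the controls (log2 change 0.09). PRDX1, a peroxiredoxin, went from 1003 and 1092 to 874 and 870 CPM in SCC25. SRXN1, sulfiredoxin, which repairs over-oxidised peroxiredoxins, fell in SCC25 from 97.8 and 96.6 to 82.0 and 74.8 CPM (log2 change -0.32, adjusted p = 0.000305). It was also lower in CAL27, from 141 and 140 CPM to 125 and 125 with sh 64 and 126 and 116 with sh 65 (log2 change of the mean -0.19, adjusted p = 0.0495). That CAL27 call was lost when any library but sh 65 replicate 1 was left out, with adjusted p up to 0.311. In A253 SRXN1 was at 102, 89.3 and 100 CPM in controls and 104, 97.3 and 107 with EHF, which overlapped.

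The gene that rose in A253 belongs to NADPH supply. PGD, the pentose phosphate enzyme 6-phosphogluconate dehydrogenase, rose from 85.5, 75.9 and 80.5 CPM to 114, 115 and 113 (1.42-fold, log2 change 0.50, SE 0.06, adjusted p = 6.86e-05), with no overlap and under every alternative tried. In SCC25 it was at 165 and 151 CPM in controls and 147 and 155 with EHF, which overlapped. In CAL27 its values were 231 and 235 in controls, 278 and 271 with sh 64 (log2 change 0.24, adjusted p = 0.0339, lost without any 1 of those 4 libraries, up to 0.253) and 239 and 261 with sh 65. The other 4 genes of this group, TALDO1, TKT, ME1 and IDH1, all fell in SCC25, where 11.6% of all genes did.

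IDH1, the cytosolic NADP-dependent isocitrate dehydrogenase, went from 234 and 229 CPM to 198 and 201 in SCC25 (log2 change -0.21, SE 0.05, adjusted p = 0.00217). The CAL27 controls were at 170 and 199 CPM, against 280 and 305 with sh 64, and 228 and 289 with sh 65. No knockdown library overlapped the controls (log2 changes 0.66 and 0.48, adjusted p = 0.00134 and 0.0101; for sh 65, 0.0863 without control replicate 1). The A253 values overlapped, at 249, 217 and 245 against 216, 222 and 227 CPM.

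ME1, malic enzyme, makes NADPH from malate. It went from 34 and 34.6 to 29.3 and 29.4 CPM in SCC25 (log2 change -0.22, adjusted p = 0.0456), and this call was lost without any 1 of the 4 libraries (adjusted p from 0.0611 to 0.187). In CAL27 it was at 70.5 and 73.2 CPM in controls and 111 and 112 with sh 64 (1.55-fold, adjusted p = 3.69e-05), but 79.5 and 84.1 with sh 65, a log2 change of 0.18 that did not pass although the groups did not overlap. In A253 it was at 88.5, 90.8 and 82.3 against 101, 88.9 and 92.6 CPM. TKT, transketolase of the pentose phosphate pathway, fell in SCC25 from 332 and 332 CPM to 255 and 279 (log2 change -0.31, SE 0.05, adjusted p = 7.08e-05). It overlapped between groups in A253 (327, 311 and 363 against 360, 344 and 349 CPM). CAL27 gave 331 and 328 CPM in controls, 376 and 358 with sh 64, and 318 and 325 with sh 65, and passed in neither.

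**Figure D2:**
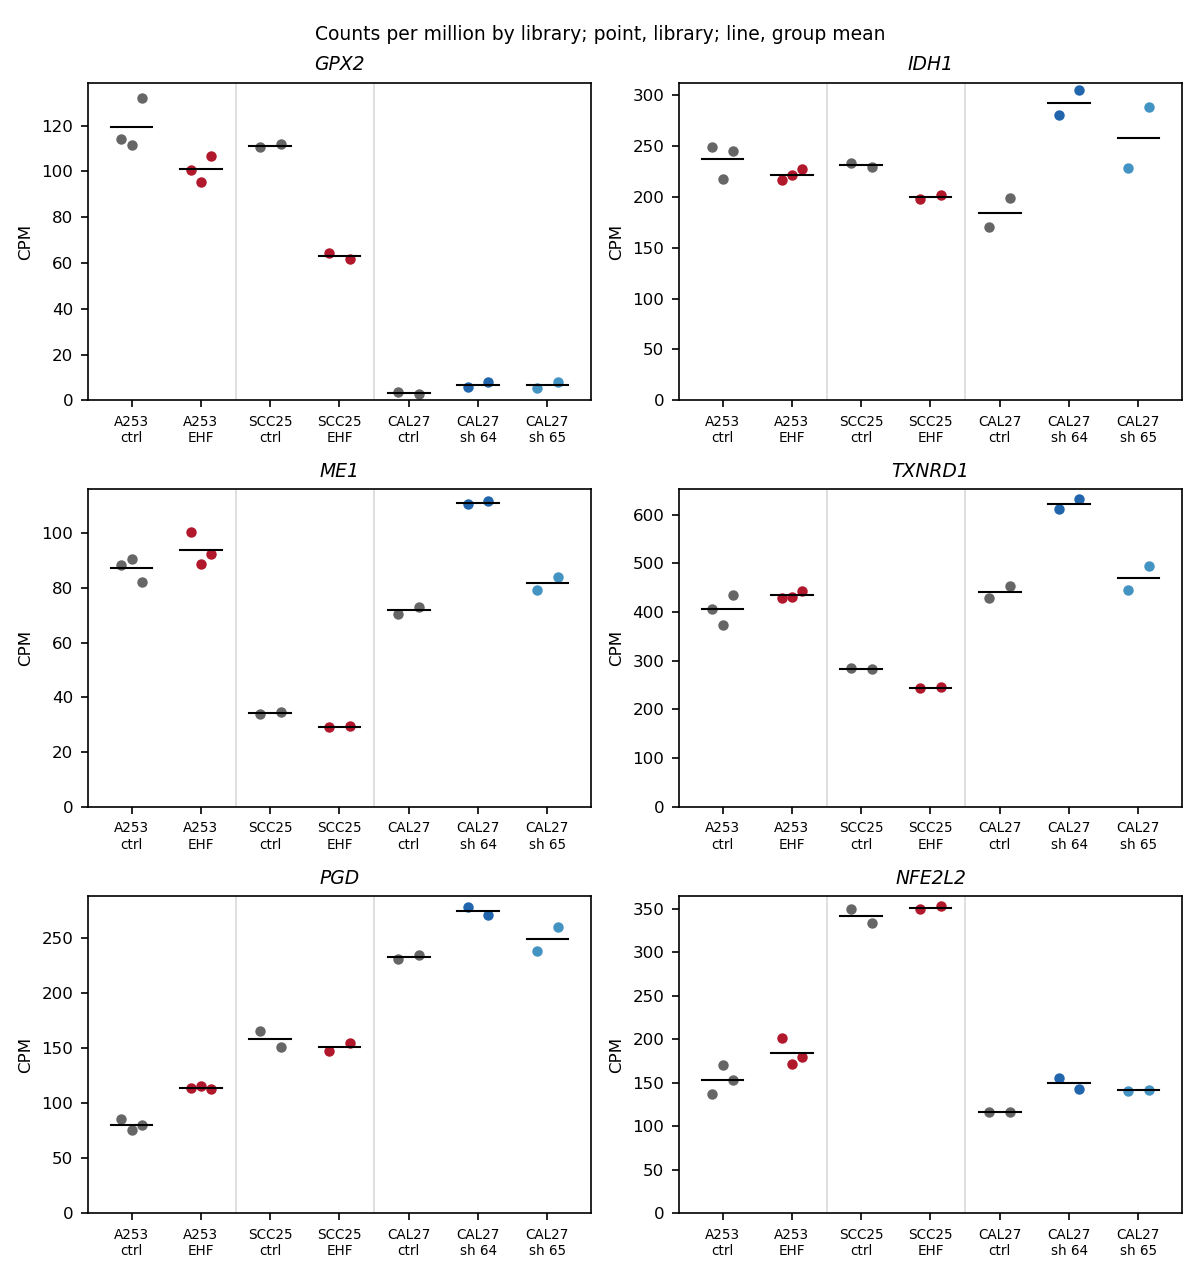
CPM (linear axis from 0) of GPX2, IDH1, ME1, TXNRD1, PGD and NFE2L2 in each of the 16 libraries, by line and group; points are libraries and horizontal lines group means. GPX2 falls with EHF in SCC25 and lies under 9 CPM in all CAL27 libraries, and PGD is the gene of the 6 with a called rise in A253 (75.9 to 85.5 CPM in controls, 113 to 115 with EHF).

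Iron and haem genes did not share a direction. FTH1, the ferritin heavy chain, was the gene that rose in SCC25: 958 and 856 CPM in controls, 1155 and 1159 with EHF (log2 change 0.35, SE 0.06, adjusted p = 5.46e-05). It also rose in CAL27, where EHF was lowered: 1013 and 1062 CPM in controls, 1503 and 1361 with sh 64 (log2 change 0.46, adjusted p = 0.000266) and 1185 and 1177 with sh 65 (0.19, not past). In A253 it was at 574, 579 and 568 against 568, 471 and 449 CPM, with a log2 change of -0.21 that did not pass. FTL, the ferritin light chain, fell in SCC25 (log2 change -0.18) and with sh 65 (-0.31). The SCC25 change was -0.13 without control replicate 2 and -0.10 without EHF overexpression replicate 1, neither past the threshold, and the sh 65 call was lost without CAL27 control replicate 2 (adjusted p = 0.149). Both ferritin genes have many processed pseudogenes, so reads may be split among copies. BLVRB, a biliverdin and flavin reductase, rose with both knockdowns, from 46.6 and 51.6 CPM to 67.7 and 60.9 and to 67.4 and 65.6 (log2 changes 0.39 and 0.43); without control replicate 1 the adjusted p was 0.137 and 0.0807, and for sh 64 it was 0.13 without its replicate 1. HMOX1, haem oxygenase, stayed between 2.31 and 6.96 CPM in all 16 libraries and passed in no comparison of an EHF-changed group with its control.

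Of the 7 detoxification genes, 5 rose in the CAL27 mean (NQO1, UGDH, EPHX1, CBR3 and PIR) where 9.88% of all genes did, and 2 fell in SCC25 (NQO1 and CBR1), where 11.6% did. CBR3, a carbonyl reductase, was at 4.42 and 4.60 CPM in CAL27 controls, 8.27 and 7.50 with sh 64, and 10.3 and 9.69 with sh 65 (mean 1.96-fold, log2 change 0.97, SE 0.16, adjusted p = 0.000448). Every knockdown library lay above both controls. Its SCC25 values were 13.4 and 16.7 CPM in controls and 12.5 and 12.0 with EHF and did not pass (log2 change -0.30); in A253 they overlapped (4.89, 4.72 and 3.16 against 3.77, 4.51 and 3.67).

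PIR, an iron-binding nuclear protein, rose with sh 64 from 4.75 and 7.63 CPM to 13.8 and 16.8 (2.31-fold, log2 change 1.21, SE 0.20, adjusted p = 0.00048). With sh 65 it was at 8.73 and 10.7, above both controls, and the log2 change of 0.56 did not pass. The 2 control libraries differ widely for this gene: the log2 change with sh 64 ran from 0.99 to 1.67 over the alternatives. In SCC25 it was at 47.3 and 49.4 CPM against 40.6 and 45.4, and in A253 at 21.3, 20.7 and 20.5 against 23.0, 23.3 and 24.6; neither passed and neither overlapped.

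EPHX1, microsomal epoxide hydrolase, rose with sh 65 from 7.96 and 8.33 CPM to 14.2 and 13.7 (log2 change 0.77, SE 0.16, adjusted p = 0.0037) and was at 9.58 and 12.3 with sh 64, which did not pass. Its A253 values were 5.64, 7.54 and 5.05 CPM in controls and 5.70, 4.40 and 4.11 with EHF, and its SCC25 values 10.8 and 10.1 against 9.62 and 10.3; both overlapped. CYP4F11, a cytochrome P450 that hydroxylates fatty acids, rose with sh 65 from 10.2 and 11.5 CPM to 15.5 and 15.4 (log2 change 0.49, adjusted p = 0.0282). That call was lost without any 1 of those 4 libraries (adjusted p from 0.0604 to 0.205); with sh 64 it was at 12.4 and 13.3. In SCC25 it was at 39.6 and 43.7 against 43.5 and 43.7 CPM, and in A253 at 4.77, 5.34 and 3.88 against 5.34, 5.68 and 3.53.
NQO1, the quinone reductase often used as the readout of NRF2, went from 202 and 211 CPM to 169 and 179 in SCC25 (log2 change -0.25, adjusted p = 0.00078). In CAL27 it went from 169 and 171 to 188 and 194 with sh 64 and 188 and 211 with sh 65, and the mean log2 change of 0.20 passed at an adjusted p of 0.046, a call lost without any library but sh 65 replicate 1 (up to 0.311). UGDH, which makes UDP-glucuronic acid, rose with sh 64 from 71.3 and 73.7 CPM to 112 and 109 (log2 change 0.61). It also rose with sh 65, by less (log2 change 0.26, adjusted p = 0.0494).

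OSGIN1, an oxidative stress-induced growth inhibitor, fell in SCC25 from 7.41 and 9.80 CPM to 5.66 and 6.19 (log2 change -0.52, SE 0.17, adjusted p = 0.023). That call was lost without control replicate 2 (log2 change -0.32, adjusted p = 0.303) or EHF overexpression replicate 1 (-0.47, 0.0831). In A253 it was at 0.805, 1.57 and 1.44 against 1.42, 1.95 and 1.76 CPM, which overlapped. The CAL27 values overlapped too, at 8.51 and 6.16 in controls, 7.26 and 4.67 with sh 64, and 7.39 and 7.99 with sh 65.

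TRIM16L, a TRIM16-like gene that resembles its parent in sequence so that reads may be shared, fell in SCC25 from 15.6 and 17.9 to 11.3 and 13.3 CPM (log2 change -0.43, SE 0.12, adjusted p = 0.00956). Without SCC25 control replicate 2 or EHF overexpression replicate 1 the log2 change was -0.33 in each case, with adjusted p of 0.118 and 0.0953. Its level in CAL27 was 42.4 and 44.8 CPM in controls, 54.0 and 58.2 with sh 64, and 71.0 and 58.1 with sh 65, and it rose with each (log2 changes 0.35 and 0.56, adjusted p = 0.0259 and 0.00101). The sh 64 call was lost without any 1 of those 4 libraries (up to 0.185). In A253 it overlapped, at 23.6, 21.8 and 27.0 against 19.6, 20.2 and 24.3 CPM.

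The lines in which EHF was raised and lowered share no libraries, so SCC25 and CAL27 were set side by side. Of the genes tested in both, 16 fell in SCC25 and 15 rose in the CAL27 mean, and 7 did both: GSR, GPX2, TXNRD1, ME1, IDH1, NQO1 and TRIM16L. They make up 43.8% of the first list and 46.7% of the second. Of all 33 genes tested in both, 15 rose in the CAL27 mean. A share near 43.8% is thus what members taken without regard to SCC25 would give. The genes described here were chosen with earlier results of these data known, so these shares are no test against all genes. In A253, where EHF was also raised, the called genes were PGD and SLC7A11, which are not among the 7. Over all 12951 genes tested in both lines, 133 genes did both, 8.4% of the 1584 that fell in SCC25 and 10.3% of the 1294 that rose in CAL27. Across all genes the same-direction lists were larger: 366 rose in both and 269 fell in both, whereas FTH1 rose and SRXN1 fell in both among the genes described here.

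**Figure D3:**
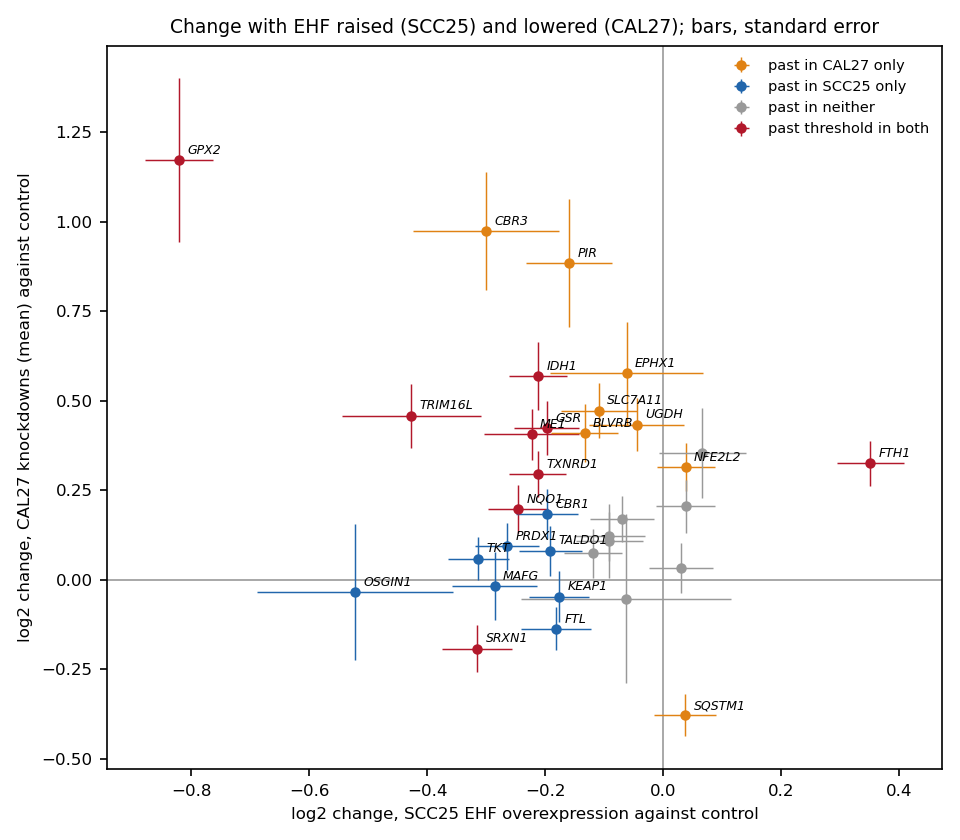
Each point is a gene, with its log2 change with EHF overexpression in SCC25 (horizontal) and in the mean of both CAL27 knockdowns (vertical); bars are standard errors, colours show in which line the adjusted p was under 0.05, and MGST1 is left out because it was not tested in CAL27. The 7 genes that fell in SCC25 and rose in CAL27 lie at the upper left, with GPX2 farthest out (-0.82 and 1.17); FTH1 lies at the upper right and SRXN1 at the lower left.

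The knockdowns share their control libraries, so their calls against control are not independent. Set against each other, sh 65 was lower than sh 64 in 5 genes and higher in 0 of 33 (3.13% and 2.21% of 13629 genes) by edgeR. The 5 were ME1 (log2 difference -0.44, SE 0.08, adjusted p = 0.00258), TXNRD1 (-0.40, SE 0.07, 0.00284), FTL (-0.35), UGDH (-0.35) and FTH1 (-0.28). EHF itself did not pass between them (log2 difference -0.16, adjusted p = 0.23). The count was 3 without sh 64 replicate 1 or without sh 65 replicate 1 and 8 without sh 65 replicate 2. The hairpin names follow the count table; in the TPM table of the same line the names sh 64 and sh 65 belong to each other's libraries, judged by which genes are at 0, and the labels' knockdown 1 and 2 could not be matched to either.

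The effect of overexpression itself differed between SCC25 and A253 in 7 of 34 genes by a test of the difference: 6 were lower in SCC25 relative to A253 (3.25% of 15460 genes) and 1 higher (2.39%). GPX2 (log2 difference of changes -0.59, SE 0.10, adjusted p = 0.00146) and PGD (-0.58, SE 0.09, 0.00057) were called under every alternative; the others were TKT, FTL, SRXN1 and TXNRD1, lower, and FTH1, higher. The count was 4, 2, 3 and 4 without SCC25 control replicate 1 or 2 or EHF overexpression replicate 1 or 2. EHF rose 8.13-fold in A253 and 1.99-fold in SCC25, from a lower control level in A253, so dose and line cannot be told apart.

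A further 75 genes of the same pathways were followed as a list. In A253 4 rose and 10 fell of 69 tested, where 5.03% and 2.94% of all genes did. In SCC25 10 rose and 14 fell of 70, where 12.2% and 11.6% of all genes did. In the CAL27 mean 20 rose and 4 fell of 69, where 9.88% and 8.91% of all genes did. With sh 64 the counts were 19 and 2 (all genes 8.76% and 6.89%), and with sh 65 they were 19 and 7 (7.62% and 7.01%). The aldo-keto reductases AKR1C1 and AKR1C2, NRF2 targets that reduce steroids and carbonyls, were the largest falls in both overexpressing lines. AKR1C1 had log2 changes of -1.01 in A253 and -0.83 in SCC25, and AKR1C2 of -0.76 and -0.66. In CAL27 the largest rises of the mean were AKR1C3 (log2 change 1.76, SE 0.24) and AKR1C2 (1.59, SE 0.19). AKR1C3 was at 1.44 and 1.97 CPM in the controls, 6.64 and 7.93 with sh 64, and 4.52 and 5.81 with sh 65. AKR1C1 passed with neither knockdown (log2 changes 0.52 with sh 64 and 0.03 with sh 65). With EHF raised, AKR1C3 fell in SCC25 (log2 change -0.56) and did not pass in A253 (-0.26). AKR1B10, another aldo-keto reductase, rose with sh 64 and with sh 65 (log2 changes 1.13 and 1.45). It fell in A253 (-0.57) and did not pass in SCC25 (-0.48). The AKR1C genes are close copies of one another, so reads may be split among them. The other largest rises were SLC48A1, a haem transporter (0.62), and ME2, mitochondrial malic enzyme (0.38), in A253, and GLRX, glutaredoxin (0.78), and ALDH3A1, an aldehyde dehydrogenase (0.63), in SCC25. ALDH3A1 also rose where EHF was lowered, with sh 64 (log2 change 1.20) and with sh 65 (0.79). SLC48A1 also rose in SCC25 (log2 change 0.32) and with sh 65 (0.40), and did not pass with sh 64 (-0.01).
With sh 64 the called falls were TFRC, the transferrin receptor (log2 change -0.61), and PRDX4, a peroxiredoxin of the endoplasmic reticulum (-0.31). With sh 65 the largest of the 7 falls were SOD2, mitochondrial superoxide dismutase (-1.06), and TFRC (-0.98). TFRC also fell where EHF was raised, in A253 (log2 change -0.23, adjusted p = 0.0266) and in SCC25 (-0.38, adjusted p = 5.22e-06). SOD2 was at 273 and 332 CPM in controls, 393 and 371 with sh 64, and 143 and 147 with sh 65, so the knockdowns lay on opposite sides of the controls.

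More of these genes were called between lines than with EHF, as was true of all genes. Of 34 genes, 23 were higher and 7 lower in SCC25 than in A253 controls (39.1% and 35.4% of 15554 genes), 22 and 8 in CAL27 than in A253 (36.9% and 36.1%), and 10 and 18 in CAL27 than in SCC25 (33.6% and 37.3%). Line, medium and any difference in preparation cannot be told apart here. By TPM, which scales counts for gene length and library size, FTL was the highest of the 34 genes in every line (2007 ± 40 (SD, n = 3) in A253, 2467 ± 30 (SD, n = 2) in SCC25 and 2044 ± 69 (SD, n = 2) in CAL27), and TXN, FTH1 and PRDX1 took the next 3 places in each. FTH1 and PRDX1 did not differ beyond the spread of their libraries in A253 and in SCC25.

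Both subunits of glutamate-cysteine ligase, GCLC and GCLM, were highest in SCC25 controls. GCLM was at 13.2 ± 0.69 TPM (SD, n = 3) in A253, 189 ± 15 (SD, n = 2) in SCC25 and 40.4 ± 2.7 (SD, n = 2) in CAL27; SCC25 was 15.8-fold above A253 (log2 difference 3.98, SE 0.07). GCLC was at 27.1, 167 and 43.1 TPM in the same order, and GSTM3, a glutathione transferase, at 7.47, 61.9 and 9.93. CYP4F11 was 9.27-fold higher in SCC25 than in A253 controls. MGST1 had 1930 reads over the SCC25 controls and 0 over the CAL27 controls, so it was at least 599-fold higher in SCC25 (a floor of 3 reads over the 2 control libraries). Against the 1 read in the A253 controls the CPM ratio was 2882 with an exact 95% counting interval of 517 to 113876.
NFE2L2 itself was at 92.7 ± 13 TPM (SD, n = 3) in A253, 199 ± 14 (SD, n = 2) in SCC25 and 67.0 ± 1.1 (SD, n = 2) in CAL27, and KEAP1 at 59.2, 105 and 57.5. GPX2 was low in CAL27 alone: 160 ± 9.9 TPM (SD, n = 3) in A253, 144 ± 4.3 (SD, n = 2) in SCC25 and 3.95 ± 0.90 (SD, n = 2) in CAL27, which was 38.3-fold below SCC25. SQSTM1 was highest in CAL27, at 325 TPM against 71.4 in A253 and 133 in SCC25. GSR was highest in A253, at 201 TPM against 64.7 in SCC25 and 74.2 in CAL27.

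**Figure D4:**
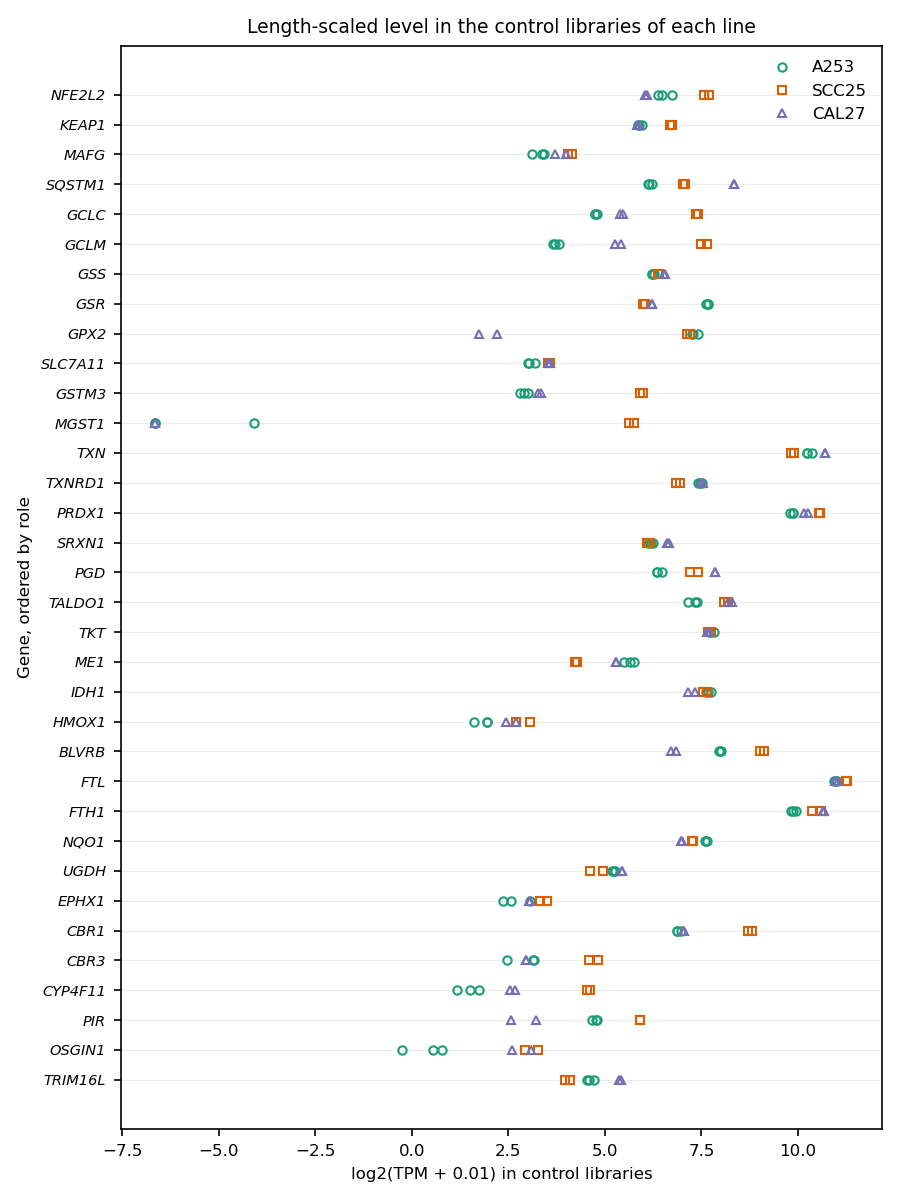
Level of the 34 genes in the control libraries on a log axis, log2(TPM + 0.01), with 1 mark per library (A253 circles, SCC25 squares, CAL27 triangles) and genes ordered by role. GCLC, GCLM and GSTM3 lie farthest right in SCC25, GPX2 lies far to the left in CAL27, and MGST1 is near the floor in A253 and CAL27.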

How the data were processed

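The authors deposited counts per gene symbol for each line, 1 table per line, and TPM tables. Per the submitters' processing notes the build was hg19 and the tools included featureCounts 1.5.3, DESeq2 1.12.4, TopHat2 2.1.1 and also Bowtie 1.1.1; their roles and settings are not given in the sources used here. The CAL27 count table holds 696 altered symbols, CBR1 among them, so its rows were named by position from the A253 table. Gene lengths implied by the deposited A253 counts and TPM (CAL27 controls where A253 had none) gave TPM for every library. The SCC25 TPM table, with 4 columns of per-sample values, was not used, and the CAL27 ChIP and input libraries were not analysed here.

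Counts were tested with edgeR 4.0.16 in R 4.3.3 (quasi-likelihood, TMM, filterByExpr, robust), 1 fit per line, 1 for the A253 and SCC25 effects together and 1 for the controls of all lines; p-values were adjusted over all genes tested. The scripts were tested on simulated counts. CPM are counts scaled to a library's total times its TMM factor; totals were 7068155 to 19962159 reads. Fits without TMM (RLE), without the filter, with DESeq2 1.42.0, with a replicate block and without each library were the alternatives. The members and lists were chosen with earlier results of these data known. Values in every library are given for EHF, NFE2L2, KEAP1 and, for each comparison of an EHF-changed group with its control, the 6 genes past the threshold with the largest change and a mean of at least 1 CPM. Of the other pathway genes, the 2 called genes that rose most and the 2 that fell most are named for each. Values of further genes among the 34, and the pairs singled out from the lists, were chosen after their values were seen.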

Additional observations from a re-analysis of the deposited data

Results flagged for a closer look

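The effect of EHF overexpression differed between SCC25 and A253, by edgeR's test of the difference with adjustment over all genes, in 7 genes. The log2 difference of the changes (SCC25 minus A253) was -0.59 for GPX2, -0.33 for TXNRD1, -0.41 for SRXN1, -0.58 for PGD, -0.40 for TKT, -0.41 for FTL and 0.55 for FTH1. PGD is the gene of the 7 that had a called change in A253 and none in SCC25; the other 6 had a called change in SCC25 and none in A253.

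The knockdowns of CAL27 differed from each other, by the same kind of test, in 5 genes, all lower with sh 65 than with sh 64. The log2 difference was -0.40 for TXNRD1, -0.44 for ME1, -0.35 for FTL, -0.28 for FTH1 and -0.35 for UGDH.

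In 1 gene, a library stood apart from the others of its group. SRXN1 was at 116 CPM in sh 65 replicate 2 and between 125 and 126 CPM in the other 3 CAL27 knockdown libraries. Chance flags about 1 in 20 groups in this way.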

How the results depend on the processing

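The number of the 34 genes called in A253, 2, became 7 without the filter on low counts and 1 with DESeq2; in SCC25, 18 became 10 with DESeq2. Leaving out each library in turn gave 1 to 3 calls in A253 (median log2 change -0.04 to 0.03), 9 to 20 in SCC25, 10 to 19 for the CAL27 mean, 8 to 16 for sh 64, 7 to 15 for sh 65, 3 to 8 between the knockdowns and 2 to 9 for the difference of effects between SCC25 and A253. Apart from these and the replicate block, the settings tried for these counts, and all settings for the comparisons of controls, gave counts within 1.5 times the reported ones; no called gene changed sign. Replicate numbers did not pair the libraries: same-numbered deviations correlated at -0.49, -0.10 and 0.52 in A253, -0.00 in SCC25, and 0.13, -0.04 and 0.36 in CAL27. A replicate block gave 5 calls in A253, 19 in SCC25, 22 for the CAL27 mean, 16 for sh 64, 18 for sh 65, 9 between the knockdowns and 9 for the difference of effects, over 1.5 times the reported count in A253 and between the knockdowns. Where a left-out library leaves 1 in a group, that library is assumed to vary like the others. With 2 or 3 libraries a group, a change that did not pass is not shown to be absent.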
